A study of Drosophila melanogaster with 2 samples.

Results

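Binding of ADD1 at and inside 10 genes that encode subunits of chromatin remodelling complexes was examined by chromatin immunoprecipitation and sequencing. The genes were taken by name, 10 of the 13945 protein-coding genes annotated on the 6 chromosome arms that carried peaks. A peak was assigned to a gene by its summit, either up to 500 bp from a transcript start or inside the gene. The genes were Iswi, Nurf-38, E(bx) and Acf (ISWI-type), brm, mor, osa and Snr1 (Brahma-type), Ino80 (INO80-type) and kis (CHD-type). Embryos of Drosophila melanogaster (0 to 24 h, mixed sex, used whole) came from 1 transgenic line (strain label CG8290) that stably carries ADD1 with GFP fused to its C terminus. Precipitation was with an anti-GFP antibody in 2 replicates of 1 group, biological ones per the labels, and both came from the same line. Whether untagged ADD1 was also present in the line is not given in the sources used here. ADD1 binds HP1a, a core component of heterochromatin. There was no second condition, so no test between groups existed, and the values below are descriptions of where the authors' peaks lay. Whole embryos mix many cell types, so binding in more cells and stronger binding per cell could not be told apart.

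Remodellers use ATP to slide, evict or exchange nucleosomes, and each complex is built around 1 ATPase of the SNF2 superfamily. Iswi is the ATPase shared by NURF, ACF and CHRAC, which space and slide nucleosomes. Brm is the ATPase of the BAP and PBAP complexes, the fly relatives of SWI/SNF, which include trithorax group proteins needed to keep developmental genes active. Ino80 gives its name to a complex that acts in DNA repair and in the control of histone variants, and Kismet, the product of kis, is a CHD-type ATPase of the trithorax group.

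A summit is the position of highest signal in a peak. The authors deposited a list of 7944 peaks thresholded by irreproducible discovery rate (IDR), and 18 of its summits lay at or inside the 10 genes. The strongest summit of each of 5 genes is shown here as a window of up to 100 bases to each side of it, 5′ to 3′ on the strand of the gene, from the Release 6 assembly on which the peaks lie. These windows are shown because they are the strongest bound stretches of the Brahma-type genes brm, mor and osa and of Ino80 and kis. Capitals mark matches, on either strand, to any of 8 short words that are listed in the next paragraph. The brm window (chr3L:15982848-15983048, minus strand) is centred 79 bp upstream of the nearest brm start, and the mor window (chr3R:15972985-15973185, minus strand) 172 bp upstream of the mor start. The osa window (chr3R:17704298-17704498, minus strand) lies in the fourth intron, 13952 bp downstream of the start. The Ino80 window (chr3R:19403313-19403484, minus strand) surrounds a summit 260 bp upstream of the Ino80 start, and the kis window (chr2L:250794-250983, minus strand) one that lay 60 bp upstream of the first kis start. The Ino80 and kis windows were shortened to 172 and 190 bases so that none held more than 30 bases of an untranslated region.
brm: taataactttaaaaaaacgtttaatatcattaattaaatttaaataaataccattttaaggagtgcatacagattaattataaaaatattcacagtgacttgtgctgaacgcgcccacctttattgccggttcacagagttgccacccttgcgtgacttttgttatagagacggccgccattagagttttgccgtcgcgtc
mor: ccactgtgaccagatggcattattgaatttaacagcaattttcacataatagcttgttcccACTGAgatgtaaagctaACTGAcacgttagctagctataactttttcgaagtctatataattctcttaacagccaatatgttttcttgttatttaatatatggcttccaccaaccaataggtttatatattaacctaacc
osa: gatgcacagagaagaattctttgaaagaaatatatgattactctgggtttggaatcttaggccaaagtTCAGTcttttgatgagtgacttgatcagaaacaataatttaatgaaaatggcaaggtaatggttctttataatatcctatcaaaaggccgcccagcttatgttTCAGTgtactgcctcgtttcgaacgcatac
Ino80: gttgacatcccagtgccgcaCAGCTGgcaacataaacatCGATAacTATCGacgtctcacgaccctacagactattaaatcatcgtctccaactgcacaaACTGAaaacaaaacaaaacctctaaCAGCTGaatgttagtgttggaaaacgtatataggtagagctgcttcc
kis: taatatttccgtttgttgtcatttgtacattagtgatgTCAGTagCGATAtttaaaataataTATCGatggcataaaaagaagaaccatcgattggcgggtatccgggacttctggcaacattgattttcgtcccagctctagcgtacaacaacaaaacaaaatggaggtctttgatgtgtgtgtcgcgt

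The words searched, on both strands, were TATCGATA (the DRE, bound by DREF and BEAF-32), CGATA (the core of BEAF-32 sites, which lies inside TATCGATA), GGTCACACT (M1BP), CAGCTG (an E-box of housekeeping promoters), GAGAGAG (Trithorax-like), CAGGTAG (Zelda), GCCATCTT (Pleiohomeotic type) and TCAGT (the initiator). TATCGATA was present in 2 of the 18 member windows, those at the starts of Iswi and Nurf-38, and in none at the other members. It was present in 4.24% of all 7944 IDR windows and in 6.45% of the windows of the same length around the 19252 annotated coding starts. Each of these windows of ISWI-type genes held 3 matches to CGATA, of which 2 lie within the palindromic TATCGATA. The Ino80 and first kis windows held 2 matches to CGATA each, so 4 of the 18 windows held it, and it was in 31.8% of all IDR windows and 37.1% of the start windows. The Ino80 window held CAGCTG at 2 places, and an osa intron summit 9380 bp from the start held it once, against 11.9% of IDR windows and 13.4% of start windows. A GAGAGAG match lay at the osa summit 1154 bp from the start, a word found in 6.60% of IDR windows and 4.69% of start windows. Within 50 bp of the summits GAGAGAG was in 0 member windows and CAGCTG in 1. TCAGT was in 5 of the 18 windows, against 37.3% and 43.4%. GGTCACACT, CAGGTAG and GCCATCTT were in 0 of the 18 windows, and in 2.76, 0.957 and 0.780% of IDR windows and 4.42, 1.08 and 0.644% of start windows. The brm window held none of the 8 words. A match describes the letters of a window and does not show that a factor was bound.

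A summit within 500 bp of an annotated start was found at 6 of the 10 genes in the IDR list, namely Iswi, Nurf-38, brm, mor, Ino80 and kis. The share over all protein-coding genes was 26.1% (3638 of 13945, exact 95% interval 25.4 to 26.8). Among IDR peaks of at least the median signal, 4 of the 10 genes had one (Iswi, Nurf-38, brm and kis), against 17.7% of coding genes. The pooled list, called on both replicates together, added osa and so reached 7 of 10 genes, against 37.9% of coding genes. Replicates were also called alone, with 30000 peaks in each list, and the same 7 genes had a start summit in both replicate lists, against 34.6% of coding genes. In the list of replicate 2 taken alone the share was 44.7%, and the members numbered 7 there too. E(bx), Acf and Snr1 had no summit at a start or inside the gene in any of the 4 lists, which was also so for 6766 coding genes (48.5%). All 7 start summits of the members in the IDR list lay upstream of the nearest start, by 1 to 260 bp, with a median position of -60 bp. Those at the inner starts of Nurf-38 and kis were nevertheless inside the gene, downstream of its outer start. Of the 4479 pairs of a coding gene and a summit at its start, 73.5% were upstream, with a median position of -52 bp. With members chosen in view of earlier results, no test was made of these counts.

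**Figure D1:**
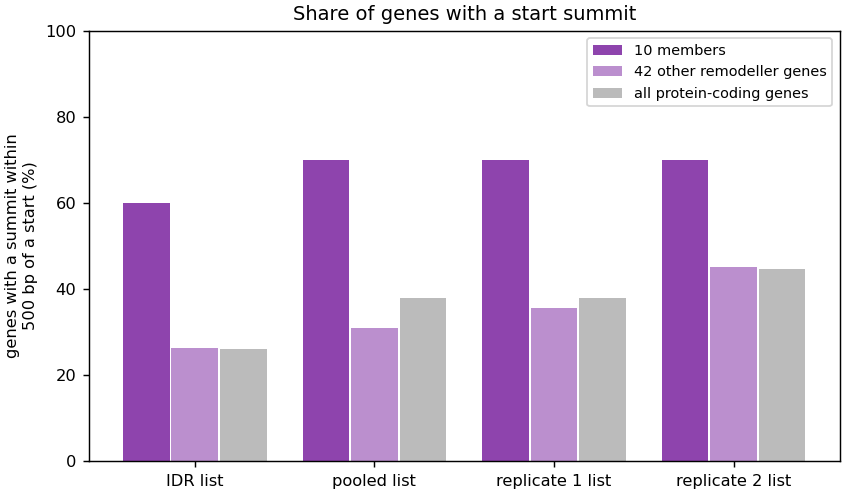
Share of genes (%) with a summit within 500 bp of a start in each of 4 peak lists, for the 10 members, for 42 other remodeller genes and for all 13945 protein-coding genes. The members stood at 6 of 10 genes in the IDR list and at 7 of 10 in the others, and the other remodeller genes at 26.2% in the IDR list, beside 26.1% of coding genes.

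Among the ISWI-type genes, the ATPase gene had the strongest start summit of the whole group. Iswi (FBgn0011604, 2R, 12636671 to 12640628, plus strand) had its IDR summit 17 bp upstream of its only start, in a peak from 12636500 to 12636786 with rank 319 by the authors' signal (1029, on a scale that was not stated). Its start summit ranked 369 in replicate 1 and 315 in replicate 2, 22 and 14 bp upstream. Both replicates thus placed it close to the same base and at a similar rank. Of the 3638 coding genes with a start summit, 6.38% had one of at least this strength. A weak summit lay near the 3′ end of Iswi in the pooled list (rank 21642) and in the replicate lists (ranks 22891 and 27874), and none passed the IDR threshold.

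Nurf-38 encodes the inorganic pyrophosphatase that is also a subunit of NURF. The gene (FBgn0016687, 2R, 24558967 to 24561087, minus strand) has 2 annotated starts 34 bp apart. Its IDR summit lay 1 bp upstream of the inner start, and in coding sequence of a transcript from the outer one, in a peak from 24560980 to 24561196 (rank 1780, signal 426). Replicate 1 ranked it 2139, with a summit 8 bp upstream of the inner start. Replicate 2 ranked it 1506, with a summit 7 bp upstream of the outer start. These replicate summits lay 7 and 40 bp from the IDR summit. A further summit 468 bp upstream, 52 bp from a start of the neighbour CG11414, was present in replicate 2 alone, at rank 14392. No other gene had a start within 500 bp of the IDR summits of Iswi and Nurf-38.

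The other ISWI-type members had no summit at all. E(bx) encodes Nurf301, the largest NURF subunit, and spans 13.0 kb (FBgn0000541, 3L, 233926 to 246912, minus strand). The nearest IDR summit to its start was 11401 bp away, 37 bp from a start of wac. Acf encodes the partner of Iswi in ACF and CHRAC (FBgn0027620, 3R, 31793981 to 31799799, plus strand). Its nearest IDR summit was 16371 bp from the start, at rank 3540 and near Rift. No peak interval overlapped either gene in any of the 4 lists. A start of a neighbouring gene faces away from that of E(bx) at 579 bp (mthl14) and from that of Acf at 74 bp (Mccc1), so close divergent neighbours were present at genes with and without a summit. In all, 8 of the 10 members had such a neighbour within 1000 bp, and osa and kis did not.

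Among the Brahma-type genes, brm had the strongest start summit. The brm gene (FBgn0000212, 3L, 15970082 to 15982869, minus strand) had its IDR summit 79 bp upstream of the nearer of its 2 starts, in the stretch printed above, and 187 bp from the divergent start of Arl1. The peak ran from 15982816 to 15983160 with rank 1666 and signal 443. It ranked 1739 in replicate 1 and 1562 in replicate 2, with summits 79 and 55 bp upstream. Its rank in the IDR list was close to that of Nurf-38 and far below that of Iswi.

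The gene mor encodes Moira, a core scaffold of BAP and PBAP. It lies at 3R, 15968134 to 15972913, on the minus strand (FBgn0002783), and 385 bp separate its start from the divergent start of Hel89B, which encodes a SNF2-type ATPase related to Mot1. The IDR summit lay between them, 172 bp upstream of mor and 213 bp from Hel89B, in a peak from 15972935 to 15973171 (rank 5315, signal 189.5). The replicates differed in which side of this stretch they favoured. Replicate 1 had its summit 158 bp upstream of mor, at rank 2091, and replicate 2 had its summit 351 bp upstream of mor and 34 bp from the Hel89B start, at rank 2526. The pooled list held a second summit there, 377 bp upstream of mor, at rank 9252. Each replicate ranked its own summit above the rank of the IDR summit in the pooled order. Weak summits 412 to 499 bp downstream of the mor start were seen in the pooled list (rank 19166), replicate 1 (16465) and replicate 2 (13370).

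osa and Snr1 had no start summit in the IDR list. Osa is the ARID protein that defines the BAP form of the complex, and its gene (FBgn0261885, 3R, 17687818 to 17718350, minus strand) had a summit 9 bp downstream of its only start in the pooled list, at rank 8118 and signal 127. This fell just outside the 7944 peaks of the IDR list. The weakest osa summit inside the list, in an intron, had signal 132 at rank 7850, and the strongest outside it 129.7 at rank 7968. The start summit of osa ranked 7023 in replicate 1 and 9196 in replicate 2. The IDR summit nearest to the osa start was 1100 bp upstream, 4 bp from a start of Pxt. Snr1 encodes the SNF5-like core subunit (FBgn0011715, 3R, 5470926 to 5472754, plus strand), and its nearest IDR summit was 3824 bp away, 1 bp from a start of the ribosomal protein gene RpL35A.

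Set side by side, ISWI-type and Brahma-type members had start summits equally often in the IDR list, 2 of 4 against 2 of 4. The pooled list gave 2 of 4 ISWI-type genes and 3 of 4 Brahma-type genes, and each replicate list gave the same counts. Start summits ranked 319 and 1780 at ISWI-type members and 1666 and 5315 at Brahma-type members, so the ranges overlapped. ISWI-type members held 0 IDR summits inside the gene away from a start, against 9 in Brahma-type members, and all 9 were in osa. Gene length differed in the same direction, since the longest ISWI-type member is E(bx) with 13.0 kb and osa has 30.5 kb. The part of length in this difference was not tested. Outside the members, 1 of 5 other ISWI-type genes had IDR summits inside, namely tou (38.6 kb) with 7. Of 7 other Brahma-type genes 1 had them, namely d4 (37.0 kb) with 2. With 4 members of each type, these values describe the genes and allow no statement on the types.

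**Figure D2:**
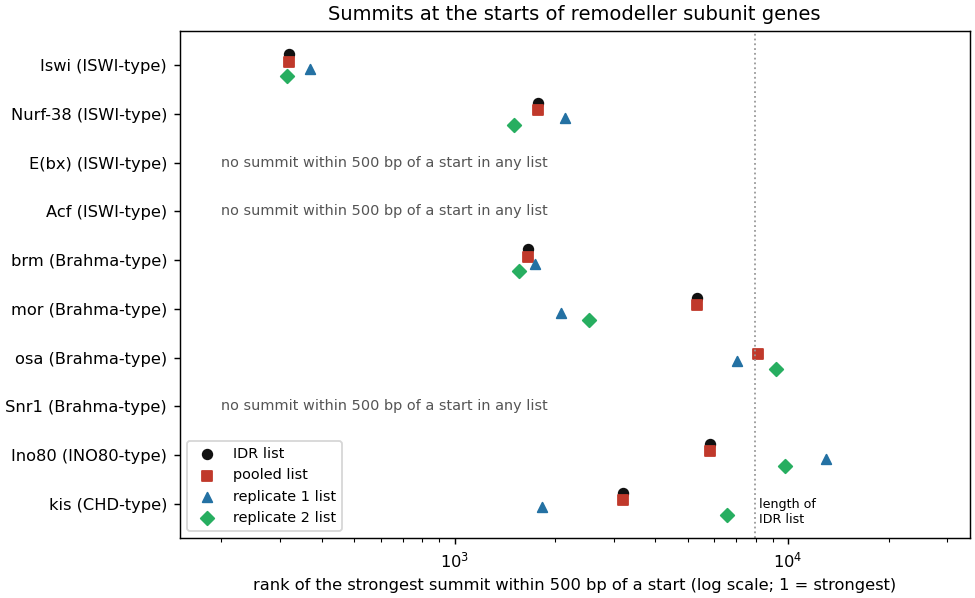
Rank of the strongest summit within 500 bp of a start (log scale, 1 is the strongest) for each member in the IDR, pooled and replicate lists, with the length of the IDR list as a dotted line. Iswi stood apart at ranks 315 to 369, Ino80 lay at ranks 9784 and 13012 in the replicates, and E(bx), Acf and Snr1 had none in any list.

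Ino80 and kis, the ATPase genes of the INO80 and CHD types, both had start summits, of unequal reproducibility. The Ino80 summit was 260 bp upstream of the Ino80 start but 42 bp from the divergent start of Aptx, which encodes a DNA repair enzyme. Its peak ran from 19403253 to 19403537 on 3R (rank 5833, signal 174). It ranked 13012 in replicate 1 and 9784 in replicate 2, so neither replicate placed it among its 7944 strongest peaks. Only 1.64% of the IDR peaks (130) shared that property. Under a rule that gave a summit to the nearest start alone, Ino80 no longer had one.

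The kis gene (FBgn0266557, 2L, 210735 to 250823, minus strand) has 2 starts 28861 bp apart, and each had an IDR summit. The summit at the outer start lay 60 bp upstream (peak 250805 to 250943, rank 3192, signal 292). It ranked 1829 in replicate 1 and 10553 in replicate 2, a difference far wider than those at Iswi, Nurf-38 and brm. The summit at the inner start lay 37 bp upstream of it and in intron 11 of the canonical transcript (peak 221844 to 222153, rank 7157, signal 144). Replicate 2 ranked it 6546, and replicate 1 had no summit within 200 bp of it. Replicate 1 did have summits 267 bp upstream (rank 7493) and 168 bp downstream (rank 13568) of that start. A further one lay 467 bp upstream (rank 22655).

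Inside the genes, osa held most of the summits. In the IDR list 3 of the 10 members had a summit within the gene (Nurf-38, osa and kis), against 17.3% of coding genes. In the pooled list this held for 6 members (28.7% of coding genes), in replicate 1 for 6 (28.4%) and in replicate 2 for 5 (34.2%). The members together held 13 IDR summits in 149.1 kb, or 0.872 per 10 kb, against 0.567 over all coding genes. Without osa the members held 0.337 per 10 kb, so the higher density rested on that gene. osa alone had 9 summits, 2.95 per 10 kb, some of them in overlapping peaks.

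All 9 IDR summits of osa were in introns, and 6 of them lay in the fourth intron within a stretch of 3956 bp. The strongest, in a peak from 17703912 to 17704549, ranked 105 in the IDR list with signal 1768 and was the strongest summit of any member. It ranked 78 in replicate 1 and 235 in replicate 2, and 45 of the 4041 IDR summits that lay over 500 bp from every annotated start were at least as strong. The next, 1154 bp downstream of the start in the first intron, ranked 1861 (1850 in replicate 1 and 2198 in replicate 2). Those at 13952 and 1154 bp were within 11 and 2 bp of the same position in both replicates. The other 7 ranked from 3337 to 7850. Of these, 3 lay within 500 bp of the start of a nested noncoding gene, lncRNA:CR46035 at 1 summit (137 bp) and lncRNA:CR46036 at 2 (170 and 373 bp). The peaks of those 2 overlapped each other and the peak of the summit at 16841 bp. The peak of the summit at 14518 bp overlapped that of the strongest. The 9 summits were therefore not all in separate stretches. The pooled list held 22 summits in osa, replicate 1 held 22 and replicate 2 held 24. None in any list lay in the last 12601 bp of the gene. Windows around the 9 summits had 36.8% G and C at the strongest and 48.8 to 58.2% at the others, against a median of 42.3% over IDR windows.

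The other members of at least 30 kb, kis and Ino80, held fewer summits inside than osa in each of the 4 lists. Of the 663 coding genes of at least 30 kb, 67.3% had an IDR summit inside, with a median of 1 per gene, and 55 of them (8.30%) had 9 or more, osa included. kis, with 40.1 kb, held 3 inside, which 256 of the 663 reached. It held 11 in the pooled list, 10 in replicate 1 and 13 in replicate 2, and 6 among the 7944 strongest peaks of replicate 2 alone. Besides that at the inner start, these lay 2543 bp downstream of the outer start (rank 4986, 5023 in replicate 1 and 5310 in replicate 2) and 1586 bp upstream of the inner start (rank 6048, 4495 and 12552), the last 29 bp from a start of lncRNA:CR44222. A stretch of 20720 bp between them held no summit in any list. Ino80, annotated with 34.2 kb, 1 transcript and 8 nested genes (FBgn0289122, 3R, 19368995 to 19403153, minus strand), had no summit inside in any of the 4 lists, as had 49 of the 663 long genes (7.39%).

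**Figure D3:**
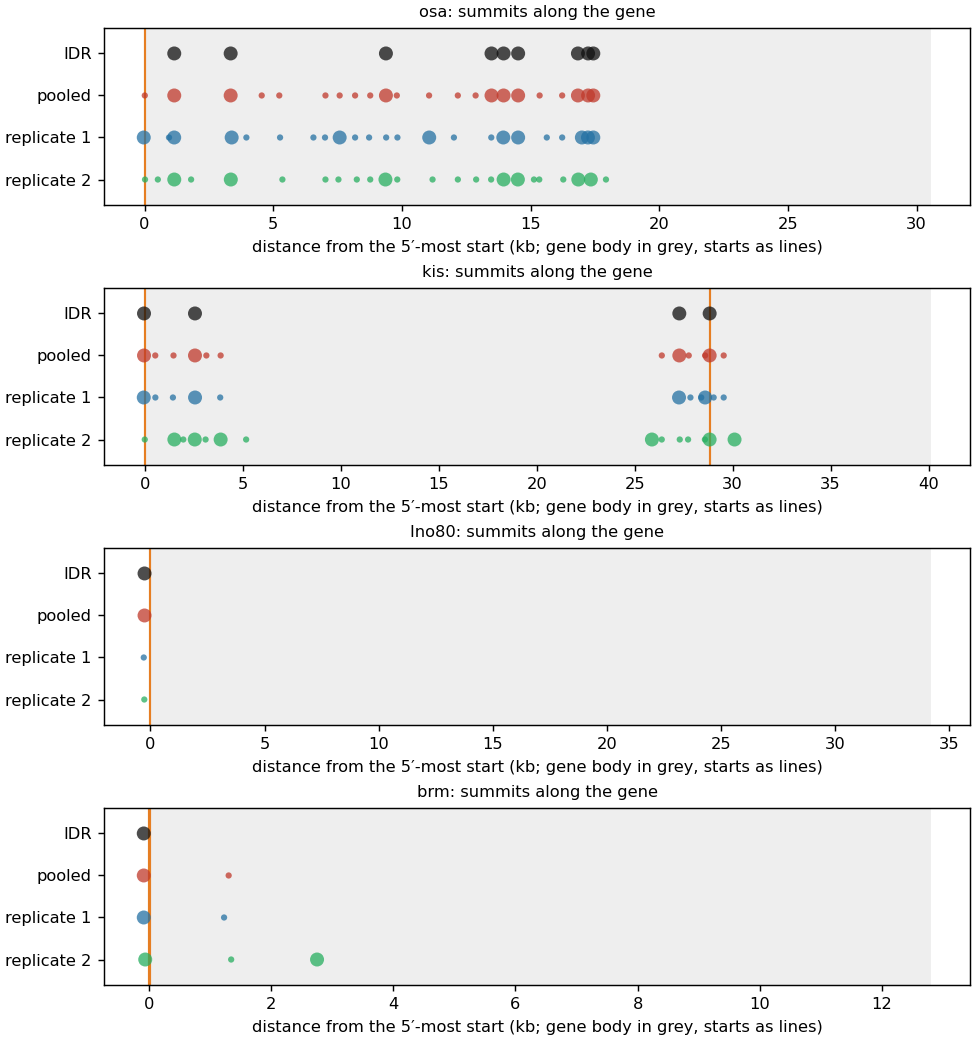
Summits along the 4 longest members with any summit, by distance from the 5′-most start (kb), in the 4 lists. Large points are among the 7944 strongest peaks of their list, small points are weaker, grey is the gene and vertical lines are starts. Summits of osa lay in the first 17931 bp, those of kis clustered near its 2 starts, and Ino80 had none inside.

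**Figure D4:**
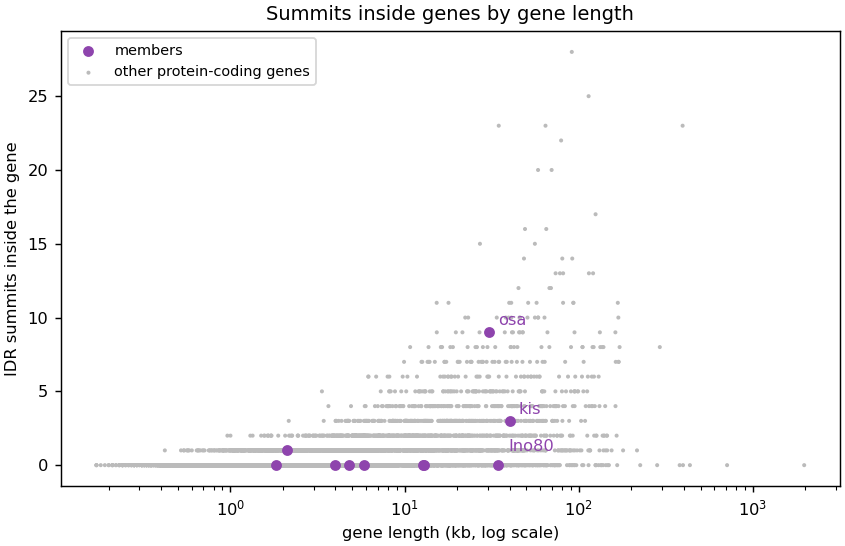
Number of IDR summits inside each protein-coding gene by gene length (kb, log scale), with the 10 members in purple. osa had 9 summits in 30.5 kb, kis 3 in 40.1 kb and Ino80 0 in 34.2 kb.

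Most IDR summits of the members had a counterpart in both replicates. The IDR list was made from these same replicates and selects reproducible peaks. Such matches are thus largely built in and are no separate evidence of agreement at the members. Of the 18 IDR summits, 17 had a summit within 200 bp in both replicate lists, and the exception was that at the inner kis start. The osa summits 17439 and 17236 bp from the start were matched to the same summit of replicate 2 (rank 2481), 96 and 107 bp away. That summit was thus counted for both. For the mor summit the replicate 2 match was 179 bp away, on the side of Hel89B. Over the whole IDR list, 96.4% of peaks had a summit within 200 bp in both replicate lists. Of the 17, 13 had summits within 50 bp in both. Of the summits found at or inside the members, 18 were among the 7944 strongest peaks of replicate 1 and 18 among those of replicate 2. Those of replicate 1 all had a pooled summit within 200 bp, and 3 of those of replicate 2 had none and were also absent from replicate 1. These were introns of kis at 224866 to 225068 (rank 1190, signal 241) and 220674 to 220831 (rank 2061, signal 180.5) and of brm at 15979968 to 15980257 (rank 6977, signal 76.2), the last 13 bp from a start of the nested gene CG17027. Of all peaks among the 7944 strongest, 9.33% in replicate 2 and 3.03% in replicate 1 had no pooled summit within 200 bp. No other summit at or inside kis ranked as high as 1190 in any of the 4 lists, the next being 1829.

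**Figure D5:**
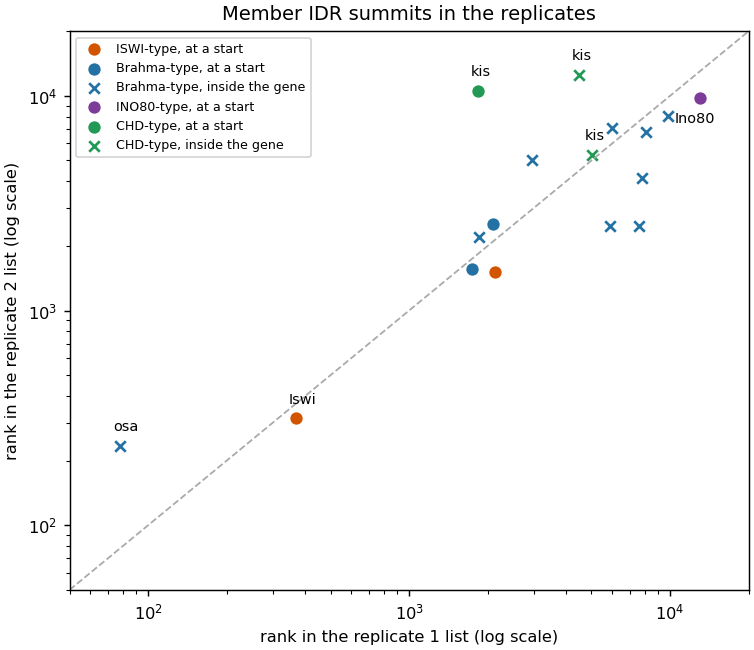
Rank of the 17 IDR summits found in both replicates, in the list of replicate 1 (x axis, log scale) against that of replicate 2 (y axis, log scale), with equal ranks as a dashed line. The summits of Iswi (369 and 315) and the strongest of osa (78 and 235) led in both replicates, and 2 kis summits lay far above the line, with ranks 10553 and 12552 in replicate 2.

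Other genes of remodelling complexes, 42 in all, had start summits about as often as coding genes overall. In the IDR list 11 of 42 had one (26.2%), and by type these were 1 of 5 ISWI-type, 3 of 7 Brahma-type, 2 of 7 CHD-type, 4 of 18 INO80- and Tip60-type and 1 of 5 other SNF2-type genes. The strongest was at simj, which encodes the p66 subunit of NuRD (rank 1032, 44 bp upstream). Hel89B had one 429 bp downstream of its start (rank 2683) besides that shared with mor. rept, which encodes the ATPase Reptin, followed at rank 3001 and tou, which encodes a relative of Acf1, at rank 3056. Ranks of 3936 to 6651 were found at Brd8, MTA1-like (NuRD), Bap55 (an actin-related subunit), e(y)3 (the SAYP subunit of PBAP), MRG15, Eaf6 and d4. A start of another gene lay within 500 bp of the summit at 6 of these genes, namely Cisd2 at Brd8, mRpL21 at rept, Lhr at Bap55, Sec23 at MTA1-like, Rcd-1 at e(y)3 and Tm1 at MRG15. The 31 genes without an IDR start summit were Caf1-55, Chrac-14, Chrac-16 and CG8677 of the ISWI type and Bap60, Bap111, Bap170 and polybromo of the Brahma type. Those of the CHD type were Chd1, Chd3, Mi-2, MBD-like and HDAC1. Those of the INO80 and Tip60 type were Arp5, Arp8, pho, pont, dom, Tip60, E(Pc), Nipped-A, Ing3, YL-1, Gas41, MrgBP, DMAP1 and Arp6, and those of other SNF2 types were Etl1, Marcal1, lds and okr. Over members and other genes together, 3 of 9 ISWI-type and 5 of 11 Brahma-type genes had an IDR start summit.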

How the data were processed

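Whole-embryo ChIP-seq of GFP-tagged ADD1 was available as 4 peak lists on dm6, per the file headers and descriptions: 1 per replicate, 1 pooled and 1 thresholded by IDR. Per the deposited descriptions, alignments and a control gave the replicate and pooled lists, from which the IDR list was made. The control was not analysed here. The labels give fragments of 200 to 800 bp after sonication. Caller, aligner and read filters were not given in the sources used here. Depth is therefore unknown. Peak signal, as deposited by the authors on an unstated scale, served only to rank peaks within a list, 1 being the strongest. The deposited −log10 q-value shared its highest value, 4.13, in 6739 IDR peaks and was not used. The pooled and replicate lists held 30000 peaks each. The IDR list equalled the 7944 strongest pooled peaks, so it is no separate measurement. The summit offset, another deposited value, was added to the peak start.

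Genes and starts came from Ensembl release 115 (BDGP6.54), on the same assembly. The reference lengths exceeded all peak ends. Start summits lay within 500 bp of any transcript start, and 1 summit could count for several genes. Rules were checked on planted summits. Python 3.11.15 and SciPy 1.17.1 were used. Intervals are Clopper-Pearson and cover counting error only. The members and lists were chosen with earlier results of these data known, so no test was made. Genes named by rule are all members, genes whose starts share a member's start summit, and the other remodeller genes. Neighbours, nested genes and genes at the nearest summits were named after their values were seen.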

Additional observations from a re-analysis of the deposited data

How the results depend on the processing

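Counts were recomputed under 8 alternatives for starts, 5 for gene bodies, 3 for replicate matches and 1 for the word windows. Start summits were found at 4 members among peaks of at least the median signal and at 7 in the pooled list, and at 5 with promoters of 200 bp or the nearest start only, in both of which Ino80 was lost. Replicate 2 alone gave 5 (without Ino80) and replicate 1 alone 6 (without Ino80, with osa), over the 7944 strongest peaks of each. E(bx), Acf and Snr1 had none under any of these. Iswi, Nurf-38, brm and kis had one under all. The Brahma-type count was 1 above the median signal (mor was lost) and ran from 2 to 3 over single replicates, and the ISWI-type count was 2 throughout. Other remodeller genes numbered 5 above the median signal and 12 to 13 over single replicates. The share of coding genes was 17.7% above the median signal, 37.9% in the pooled list, 21.7% with 200 bp, 29.5% with 1000 bp, 21.7% by nearest start, and 25.8 to 29.0% over single replicates (27.4% ± 2.28, SD, n = 2). Summits inside members numbered 5 above the median signal, 37 in the pooled list and 13 to 14 over single replicates, which hid changes by gene: from replicate 2 alone osa held 7, kis 6, brm 1 and Nurf-38 0. With 50 bp to each side of the summit, GAGAGAG was in 0 member windows, CAGCTG in 1 and TCAGT in 4, and the counts of the other 5 words did not change. The pooled list is longer and that above the median signal shorter by construction; for the other shifts the cause was not tested. Matches in both replicates were 13 of 18 within 50 bp, 18 within 500 bp and 16 by overlap. No paired analysis was possible because the series has 1 group. Unknown depth limits any statement that a summit is absent.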

Other observations

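Of the 42 other remodeller genes, 6 had an IDR summit inside (tou, d4, Mi-2, simj, Etl1 and Hel89B), against 17.3% of coding genes. Mi-2, which encodes the CHD-type ATPase of NuRD, spans 28.2 kb and held 7 IDR summits inside while no list had a summit within 500 bp of its starts. simj held 8 and tou (38.6 kb) held 7 inside, both with a start summit as well, and d4 (37.0 kb) held 2. Hel89B held 2 and Etl1 held 1, while Nipped-A (73.1 kb) and dom (18.4 kb) held 0.

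Start summits in 1 replicate only were found at 7 of the 42 other remodeller genes in replicate 2 (Bap170, Chd1, Arp5, pont, E(Pc), Ing3 and MrgBP) and at 3 in replicate 1 (Nipped-A, YL-1 and Eaf6). Over all coding genes the shares were 10.2% for replicate 2 and 3.46% for replicate 1. The summit of replicate 2 at Chd1 was at rank 1107, 334 bp upstream and 59 bp from a start of Bem46, and those at Ing3 and E(Pc) at ranks 3182 and 3291. Depth and quality of the replicates were not known, and their part in this was not tested.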
